A study of Mus musculus with 2 samples.

Results

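A set of 10 genes of the FGF-ERK pathway was examined in ES-E14 cells: the ligand genes Fgf4, Fgf15 and Fgf17, the receptor genes Fgfr1 and Fgfr2, and the ERK target genes Dusp6, Spry2, Spry4, Etv4 and Etv5. They were picked by symbol, with earlier results of these data known. They were matched to the gene identifiers of the deposited tables with the version removed, and make up 10 of the 43346 genes listed there. ES-E14 is a male embryonic stem cell line of mouse strain 129/Ola, and total RNA from it was sequenced in 2 libraries labelled biological replicates 2 and 1. Both libraries belong to 1 group, and the labels name no treatment, medium or second cell type. Since the labels trace both libraries to 1 source sample, their spread may be only technical. With 1 library on each side, differences between them carry no test and are given as measured.

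Fibroblast growth factors are secreted proteins that bind receptor tyrosine kinases together with heparan sulphate chains on the cell surface. The receptor recruits adaptors that load RAS with GTP, and the RAF, MEK and ERK kinases then pass the signal to the nucleus. There ERK activity switches on ETS factors such as Etv4 and Etv5 and a set of inhibitors that act back on the pathway, the sprouty proteins and the ERK phosphatase Dusp6 among them. In mouse embryonic stem cells the pathway is best known for the Fgf4 that the cells make themselves, which primes them to leave the naive state.

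Levels are given in TPM, the share of a library's transcripts that a gene holds after correction for transcript length. The mean and SD are over n = 2 libraries. The gene tables held 45573500 expected counts in replicate 2 and 43163300 in replicate 1, an expected count being the estimated number of reads from a gene. Protein-coding genes held 23.8% of TPM in replicate 2 and 19.35% in replicate 1, so a protein-coding gene whose share among protein-coding genes is equal in both stands higher in replicate 2 on the TPM scale. Among the 10480 protein-coding genes whose mean reached 1 TPM, the median difference was 0.23 on the log2(TPM + 1) scale (replicate 2 minus replicate 1). With expected counts scaled by TMM factors, which set the bulk of genes level between libraries, that median was 0.02, and both scales are given where they part. Of the cell type markers, 6 of 6 embryonic stem cell genes were at 1 TPM or more in both libraries, with summed levels of 430.34 and 342.38 TPM in replicates 2 and 1.

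All 10 genes stood at 1 TPM or more in both libraries, as did 46.3% of the 21474 protein-coding genes. Since earlier results were known when the 10 were picked, the gap to that share is not read as a finding. By mean level they ran from Fgf4 through Etv5, Fgfr1, Etv4, Spry2, Dusp6, Fgf17, Fgfr2 and Spry4 to Fgf15. Fgf4 was the highest of the 10 and Fgf15 the lowest in each library. The ranges of the 2 libraries overlapped in 5 of the 9 neighbouring pairs of that order, so the middle of it is not settled: Fgfr1 and Etv4, and every neighbouring pair from Spry2 to Spry4, did not stand apart beyond the spread. Within each library Fgfr1 stood above Etv4, whereas every neighbouring pair from Spry2 to Spry4 changed order between the libraries. Fgf17 took place 9 of the 10 in replicate 2 and place 4 in replicate 1, and Dusp6 took places 5 and 9.

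**Figure D1:**
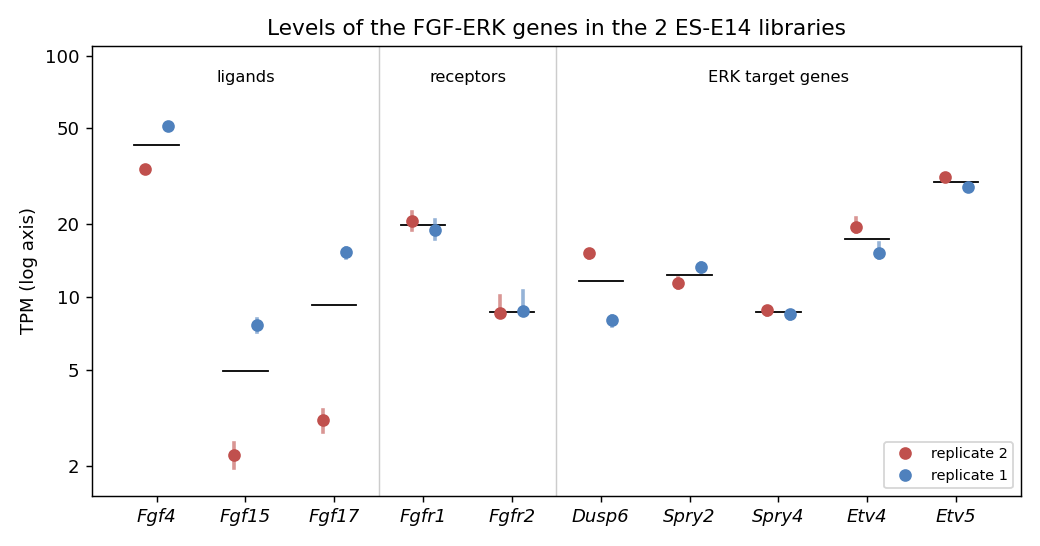
TPM on a log axis of each of the 10 genes in replicate 2 and replicate 1 (points), with the mean (black line) and the deposited TPM interval of each library (vertical bar). Fgf4, Fgf15 and Fgf17 stand lower in replicate 2, Dusp6 stands higher, and the points of Fgfr1, Fgfr2, Spry4 and Etv5 lie close together.

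All 3 ligand genes stood lower in replicate 2, and Fgf15 and Fgf17 stood further apart between the libraries than any other of the 10 genes. Fgf4 (ENSMUSG00000050917), the ligand that embryonic stem cells make for their own ERK signalling, had 33.93 TPM in replicate 2 and 51.43 TPM in replicate 1, a mean of 42.7 ± 12.4 TPM (SD, n = 2). Of all protein-coding genes, 3.497% had a higher mean. Its counts were 7212 in replicate 2 and 11482 in replicate 1. The only transcript listed, Fgf4-201, lies on chromosome 7 from 144861386 to 144865243 (GRCm38, plus strand).

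Fgf17 (ENSMUSG00000022101; chromosome 14, 70636203 to 70642268, minus strand) belongs to the Fgf8 subfamily, known from patterning of the midbrain and cerebellum. It had 3.09 TPM in replicate 2 and 15.36 TPM in replicate 1, from 350 and 1826 counts. Fgf15 (ENSMUSG00000031073; chromosome 7, 144896531 to 144900953, plus strand), known in the mouse gut as an endocrine signal to the liver, had 2.21 TPM in replicate 2 and 7.69 TPM in replicate 1, from 270 and 987 counts. These 2 genes thus had the widest relative spread of the 10, with means of 9.225 ± 8.68 TPM for Fgf17 and 4.95 ± 3.87 TPM for Fgf15 (SD, n = 2 each). Fgf15 lies downstream of Fgf4, with 31287 bases between the end of Fgf4-201 and the start of Fgf15-201.

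The difference between libraries (replicate 2 minus replicate 1, log2(TPM + 1)) was -2 for Fgf17, -1.44 for Fgf15 and -0.59 for Fgf4. With TMM-scaled counts it was -2.46, -1.92 and -0.89. The ratio of TMM-scaled counts, replicate 2 over replicate 1, was 0.164 for Fgf17 (exact 95% interval 0.146 to 0.184), 0.234 for Fgf15 (0.203 to 0.267) and 0.536 for Fgf4 (0.521 to 0.552). These intervals cover counting error only. Depth therefore does not limit the 3 ligand values, but how far cultures or preparations vary cannot be read from 1 library a side.

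Fgf15 and Fgf17 were the only members past 2-fold on the TPM scale, both lower in replicate 2. Among the 10480 protein-coding genes, 0.544% were at least 2-fold lower and 2.58% at least 2-fold higher. None of the 10 members was 2-fold higher. With TMM-scaled counts the same 2 genes were past 2-fold and lower, and none was past it and higher. The shares of protein-coding genes were then 2.56% lower and 1.68% higher, so the share of calls that were higher was 82.6% by TPM and 39.6% by TMM. Because the 10 members were picked with earlier results known, their gap to these shares is not read as a finding.

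Summed over the 3 genes, ligand transcripts came to 39.23 TPM in replicate 2 and 74.48 TPM in replicate 1. Fgf4 gave 86.5% of that sum in replicate 2 and 69.1% in replicate 1. The other 15 secreted FGF ligand genes were all under 1 TPM in both libraries and summed to 3.21 and 3.86 TPM in replicates 2 and 1. The highest of them were Fgf1, with 0.53 and 0.97 TPM in replicates 2 and 1, and Fgf3, with 0.65 and 0.63 TPM, and the lowest was Fgf6, with 0 and 0.01 TPM. Of the TPM of all 18 secreted ligand genes, Fgf4, Fgf15 and Fgf17 together held 92.4% in replicate 2 and 95.1% in replicate 1. The choice of these 3 genes, made with earlier results known, may bear on that share. The 4 intracellular FGF homologous factors, which do not act through FGF receptors in the usual way, were all below 1 TPM, from Fgf13 (0.31 and 0.30 TPM in replicates 2 and 1) and Fgf11 (0.07 and 0.08 TPM) down to Fgf12, listed at 0 in both.

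The receptor genes were close to level. Fgfr1 (ENSMUSG00000031565; chromosome 8, 25513654 to 25575718, plus strand), the main FGF receptor of the epiblast lineage, had 20.6 TPM in replicate 2 and 19.01 TPM in replicate 1, a mean of 19.8 ± 1.12 TPM (SD, n = 2). Fgfr2 (ENSMUSG00000030849; chromosome 7, minus strand, leading transcript from 130163709 to 130266191), the receptor gene linked to epithelia and to primitive endoderm, had 8.59 TPM in replicate 2 and 8.75 TPM in replicate 1, a mean of 8.67 ± 0.113 TPM. Fgfr1 stood above Fgfr2 in both libraries. The deposited TPM intervals, whose level is not stated, overlapped between the libraries for both receptor genes.

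On the count scale both receptors stood a little lower in replicate 2. The ratio of TMM-scaled counts was 0.895 for Fgfr1 (exact 95% interval 0.855 to 0.938) and 0.775 for Fgfr2 (0.722 to 0.833). The sign for Fgfr1 depended on the scale, with a difference of 0.11 by TPM and -0.16 by TMM (log2), while Fgfr2 had -0.02 and -0.36. Against the median of protein-coding genes, 0.23 by TPM and 0.02 by TMM, both receptors lay below it on each scale.

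Of the summed TPM of the 4 tyrosine kinase FGF receptor genes, Fgfr1 held 67.5% in replicate 2 and 65.3% in replicate 1, and Fgfr2 held 28.1% and 30.1%. Among the 5 other receptor and co-receptor genes, Fgfrl1, a receptor without the kinase domain, passed 1 TPM in both libraries, with 2.71 and 2.51 TPM in replicates 2 and 1. Fgfr3 had 0.90 and 0.87 TPM, and the lowest, the klotho gene Kl, had 0.01 TPM in each. Fgf15 is known to signal with the co-receptor beta-klotho, whose gene Klb, named after its values were seen, had 0.83 and 0.12 TPM in replicates 2 and 1.

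Receptor transcripts were then sorted by the exon they use for the closing part of the third immunoglobulin domain, the part of the receptor that sets which ligands bind. Exon IIIb is typical of epithelial cells and IIIc of mesenchymal cells, and Fgf4 and Fgf17 are known to act through IIIc forms. Exons were taken from the GENCODE M21 annotation on GRCm38.

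Among Fgfr1 transcripts that hold exactly one of the 2 exons, nearly all output was of the IIIc form. These IIIc transcripts summed to 9.67 TPM in replicate 2 and 8.57 TPM in replicate 1, and IIIb transcripts to 0.03 TPM in each. The IIIc share of this output was 99.7% ± 0.0280 (SD, n = 2). Of the whole gene's TPM, IIIc transcripts held 46.9% in replicate 2 and 45.1% in replicate 1. The IIIb transcripts rested on 5.63 and 7.43 expected counts in replicates 2 and 1.

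Fgfr2 held more of the IIIb form. Its IIIc transcripts summed to 3.99 TPM in replicate 2 and 3.77 TPM in replicate 1, and its IIIb transcripts to 0.84 and 1.52 TPM. The IIIc share was 82.6% in replicate 2 and 71.3% in replicate 1, a mean of 76.9% ± 8.02 (SD, n = 2). IIIc thus led in both receptor genes and both libraries, and the share in Fgfr2 was below that in Fgfr1 in each library by more than the spread of either. The IIIb transcripts of Fgfr2 rested on 127.3 and 279.79 expected counts in replicates 2 and 1. Of the 10 listed, 6 were at 0 TPM in both libraries. Among the rest, Fgfr2-211 had 0 TPM in replicate 2 and 0.55 TPM in replicate 1, from 0 and 123.09 expected counts. The gap between the libraries in the IIIb sum thus rests in large part on this transcript. Its deposited length is 3053 bases, against 4311 in the M21 model that set its class. Expected counts are split among transcripts by estimation, and no error for these sums is given in the files.

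By TPM, much of the output of both genes was outside this split. In Fgfr1, transcript Fgfr1-208 had 3.88 TPM in replicate 2 and 3.64 TPM in replicate 1. By M21 it holds both exons, and it is classed as a target of nonsense-mediated decay. Its M21 model has 1903 bases against a deposited length of 1563, so whether the counted form holds both exons is not known. Transcripts with neither exon, most of them short or partial models, held 27.7% and 27.4% of Fgfr1 TPM in replicates 2 and 1. In Fgfr2 they held 43.8% and 39.5%. TPM corrects for length, so short models weigh more in it than in counts. By expected counts these transcripts held 212.21 of 3696 in replicate 2 and 226.06 of 3524 in replicate 1 for Fgfr1. For Fgfr2 they held 358.52 of 1466.51 and 367.9 of 1614.71.

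**Figure D2:**
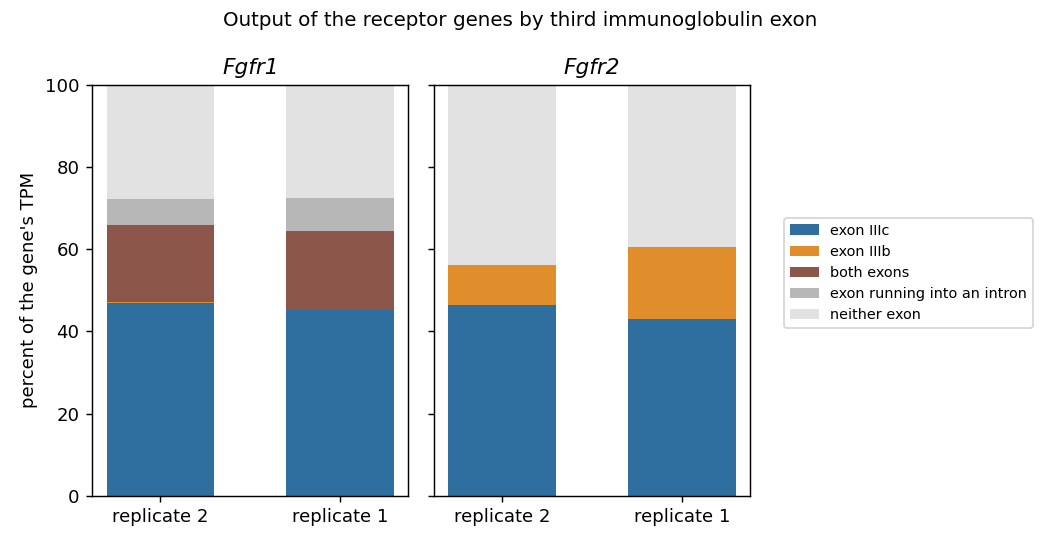
Percent of each receptor gene's TPM in transcripts with exon IIIc, exon IIIb, both, an exon there that runs into an intron, or neither (stacked bars from 0), in replicate 2 and replicate 1. The IIIc band leads in all 4 bars among transcripts with one of the exons, the IIIb band is visible only for Fgfr2, and a band with both exons is seen only for Fgfr1. Exons are assigned by the M21 annotation.

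Other splice choices were also read from these transcripts. An exon of 267 bases that encodes the first immunoglobulin domain was held by 97.4% of the TPM of Fgfr1 IIIc transcripts in replicate 2 and 100% in replicate 1. For Fgfr2 IIIc transcripts the values were 69.2% and 60.2%. The 3 IIIb transcripts of Fgfr2 with that exon were listed at 0 TPM in both libraries. In each gene a further internal exon is annotated in forms that differ by 6 bases; these are different exons in the 2 genes, so their shares are not compared. In Fgfr1 the exon has 90 or 84 bases, and the longer form made up 9.72% of IIIc output in replicate 2 and 6.07% in replicate 1. In Fgfr2 it has 203 or 197 bases, and the longer form made up 74.2% and 62.6% of IIIc output.

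The leading transcript of Fgfr1 was Fgfr1-202, a coding form of 18 exons with 2460 coding bases and exon IIIc, with 8.10 and 7.49 TPM in replicates 2 and 1. By the deposited percent, it took 39.4% ± 0.0778 of the gene's output (SD, n = 2). Fgfr1-208 followed with 18.85% in replicate 2 and 19.13% in replicate 1. The short coding model Fgfr1-205 had 15.06% and 14.01%, and the retained-intron model Fgfr1-210 had 4.93% and 6.3%. By class, 65.93% of Fgfr1 output was protein-coding in replicate 2 and 62.32% in replicate 1.

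In Fgfr2 the leading transcript was Fgfr2-215, a coding IIIc form of 18 exons with 2520 coding bases, with 2.76 and 2.25 TPM in replicates 2 and 1. It took 28.9% ± 4.58 of the output (SD, n = 2). Next came the retained-intron model Fgfr2-221 (13.6% in replicate 2 and 12.55% in replicate 1), the coding form Fgfr2-217 (16.47% and 8.93%), whose annotated start at 133123350 lies far upstream of the other forms, and the coding IIIc form Fgfr2-207 (11.97% and 12.74%). Of the 26 Fgfr2 transcripts, 9 were at 0 in both libraries.

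The 5 ERK target genes were all detected. Etv5 (ENSMUSG00000013089; chromosome 16, 22381309 to 22439719, minus strand), an ETS transcription factor of the PEA3 group, was the highest, with 31.51 TPM in replicate 2 and 28.47 TPM in replicate 1. Its relative Etv4 (ENSMUSG00000017724; chromosome 11, 101769742 to 101785371, minus strand) had 19.53 and 15.2 TPM in replicates 2 and 1. The means were 30.0 ± 2.15 TPM for Etv5 and 17.4 ± 3.06 TPM for Etv4 (SD, n = 2 each). Etv1, the other gene of that group and named after its values were seen, had 4.88 and 4.4 TPM.

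Dusp6 (ENSMUSG00000019960; chromosome 10, 99263231 to 99267489, plus strand), a cytoplasmic phosphatase that removes the activating phosphates from ERK, stood out among the targets. It had 15.18 TPM in replicate 2 and 8.03 TPM in replicate 1, from 2964 and 1647 counts, a mean of 11.6 ± 5.06 TPM (SD, n = 2). The ratio of TMM-scaled counts was 1.54 (exact 95% interval 1.45 to 1.63). Its difference of 0.84 by TPM and 0.61 by TMM (log2) lay under 2-fold, and it was the highest of the 10 on both scales.

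The sprouty genes encode inhibitors of signalling from receptor tyrosine kinases to ERK. Spry2 (ENSMUSG00000022114; chromosome 14, 105891947 to 105896819, minus strand) had 11.47 TPM in replicate 2 and 13.28 TPM in replicate 1, and Spry4 (ENSMUSG00000024427; chromosome 18, 38586247 to 38601415, minus strand) had 8.81 and 8.5 TPM. Spry2 stood lower in replicate 2 on both scales, with a difference of -0.20 by TPM and -0.50 by TMM. The sign for Spry4 (0.05 by TPM, -0.24 by TMM) and Etv5 (0.14 and -0.15) depended on the scale. Etv4 stayed above 0 on both (0.34 and 0.10). Of the 5 targets, 4 stood higher in replicate 2 by TPM and 2, Dusp6 and Etv4, by TMM. These counts have no background, as the share of all protein-coding genes that stood higher is not given here.

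**Figure D3:**
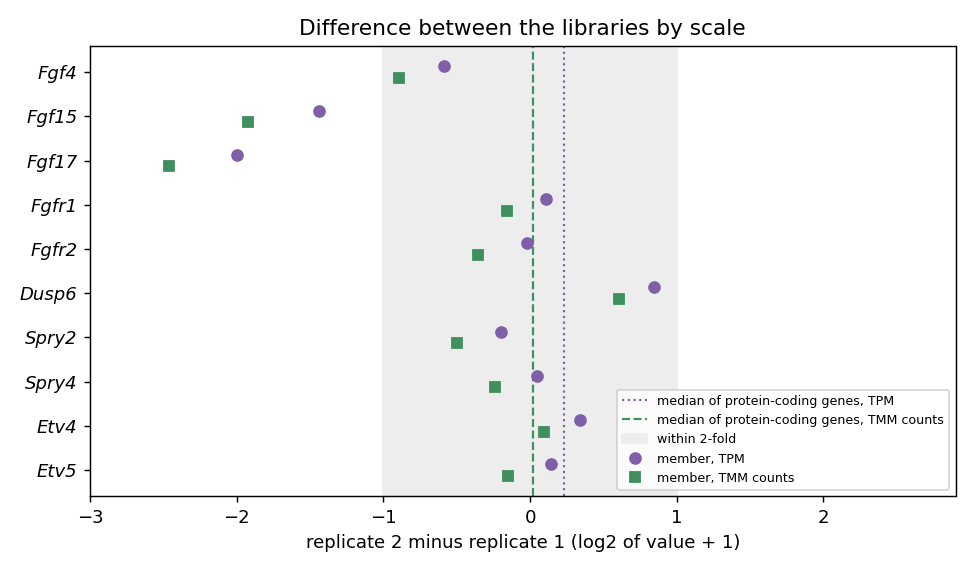
Difference between the libraries (replicate 2 minus replicate 1, log2 of value + 1) of each gene in TPM (circles) and in TMM-scaled counts (squares), with the median of 10480 protein-coding genes on each scale as vertical lines and the range within 2-fold shaded. Fgf15 and Fgf17 lie beyond 2-fold on both scales, Dusp6 lies furthest to the right, and Fgfr1, Spry4 and Etv5 lie on either side of 0 by scale.

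By role, the median level was 9.225 TPM for the ligand genes, 14.2 TPM for the receptor genes and 12.4 TPM for the ERK target genes. The ligand median rested on the library, with 3.09 TPM in replicate 2 and 15.36 TPM in replicate 1, against 14.6 and 13.88 TPM for the receptors and 15.18 and 13.28 TPM for the targets. Ligands thus had the lowest median of the 3 roles in replicate 2 and the highest in replicate 1. Over all 10 genes the median difference between libraries was 0.01 by TPM and -0.30 by TMM, against 0.23 and 0.02 for protein-coding genes. The summed level of the targets was 86.5 TPM in replicate 2 and 73.48 TPM in replicate 1, that of the receptors 29.19 and 27.76 TPM. When TPM were scaled anew over nuclear protein-coding genes alone, the ligand sum was 171 TPM in replicate 2 and 399 TPM in replicate 1, and the target sum 378 and 394 TPM. The ligand sum was thus lower in replicate 2 on both scales, whereas the order of the target sum flipped with the rescaling. The deposited TPM intervals of the libraries did not overlap for 7 of the 10 genes, all but Fgfr1, Fgfr2 and Spry4. The same held for 64.0% of protein-coding genes, so this share is near the background.

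Of the 10 genes, Fgf4, Fgf15, Fgf17, Dusp6, Spry2 and Spry4 had 1 transcript in the tables. Etv5 divided its output between Etv5-203, with 57.53% in replicate 2 and 56.08% in replicate 1, and Etv5-201, with 42.16% and 43.53%. Their 5′ ends lie 3205 bases apart, and Etv5-203 has 1584 coding bases against 1530 in Etv5-201. Etv4 was led by Etv4-201 (46.36% in replicate 2 and 46.4% in replicate 1), followed by the processed transcript Etv4-207, which has no coding sequence (22.99% and 24.63%). Protein-coding transcripts took 60.14% of Etv4 output in replicate 2 and 58.19% in replicate 1, and 99.69% and 99.61% of Etv5 output.

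Of 84 further pathway genes in 9 lists, 54 (64.3%) were at 1 TPM or more in both libraries, against 46.3% of protein-coding genes. The lists were chosen with earlier results known, so the gap to that share is not read as a finding. All 14 genes of the RAS-RAF-MEK-ERK cascade passed, with the RAS gene Hras highest by mean (29.41 TPM in replicate 2 and 24.62 TPM in replicate 1) and the scaffold gene Ksr1 lowest (1.9 and 1.34 TPM). Of the adaptors 8 of 9 passed, from the phospholipase gene Plcg1 (13.61 and 18.68 TPM) and Shc1 (16.85 and 12.93 TPM) to the exchange factor gene Sos2 (1.57 and 0.67 TPM). Of the genes for heparan sulphate synthesis 9 of 10 passed, led by the chain polymerase genes Ext1 (11.12 and 13.83 TPM) and Ext2 (11.8 and 13.06 TPM), with the sulphotransferase gene Hs3st1 lowest (1.62 and 0.4 TPM).

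Of the genes that hold RAS back, 6 of 7 passed, with Spred1 at 10.35 and 12.29 TPM in replicates 2 and 1, Rasa1 at 8.21 and 5.64 TPM and Spred3 at 1.42 and 0.98 TPM. Of other transcription factor genes linked to ERK, 10 of 12 passed. This list is not limited to genes that ERK switches on, so its levels are not read as ERK output. It was led by the repressor genes Erf (20.43 and 15.74 TPM) and Cic (17.01 and 13.22 TPM), with Egr2 lowest (0.04 and 0.05 TPM). Across all 9 lists, 1 gene, Dusp4, was 2-fold higher in replicate 2 by TPM and 2, Dusp4 and Hs3st1, by TMM, and none was 2-fold lower, out of 59 whose mean reached 1 TPM. Among the 10480 protein-coding genes, 2.58% were 2-fold higher by TPM and 1.68% by TMM. The shares that were 2-fold lower were 0.544% and 2.56%. Counts this small are not read further.

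The 8 other feedback genes include further phosphatases of ERK and its relatives. The median of their differences was 0.71 by TPM and 0.62 by TMM (log2, replicate 2 minus replicate 1). The median of protein-coding genes whose mean reached 1 TPM was 0.23 and 0.02. In replicate 2, 6 of 8 stood higher by TPM and 5 of 8 by TMM. The share of all protein-coding genes that stood higher is not given here, so these 2 counts have no background. The phosphatase gene Dusp9 had 45.52 TPM in replicate 2 and 23.76 TPM in replicate 1, a mean above that of each of the 5 targets, though Etv5 stood above it in replicate 1. Dusp4, a nuclear ERK phosphatase, had 20.11 and 7.42 TPM with a difference of 1.33 by TPM and 1.12 by TMM. Dusp7 was the lowest, with 1.03 and 0.97 TPM. The sprouty relative Spry1, named after its values were seen, had 1.63 and 1.88 TPM, below Spry2 and Spry4 in both libraries. Spry3 was not analysed here.

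**Figure D4:**
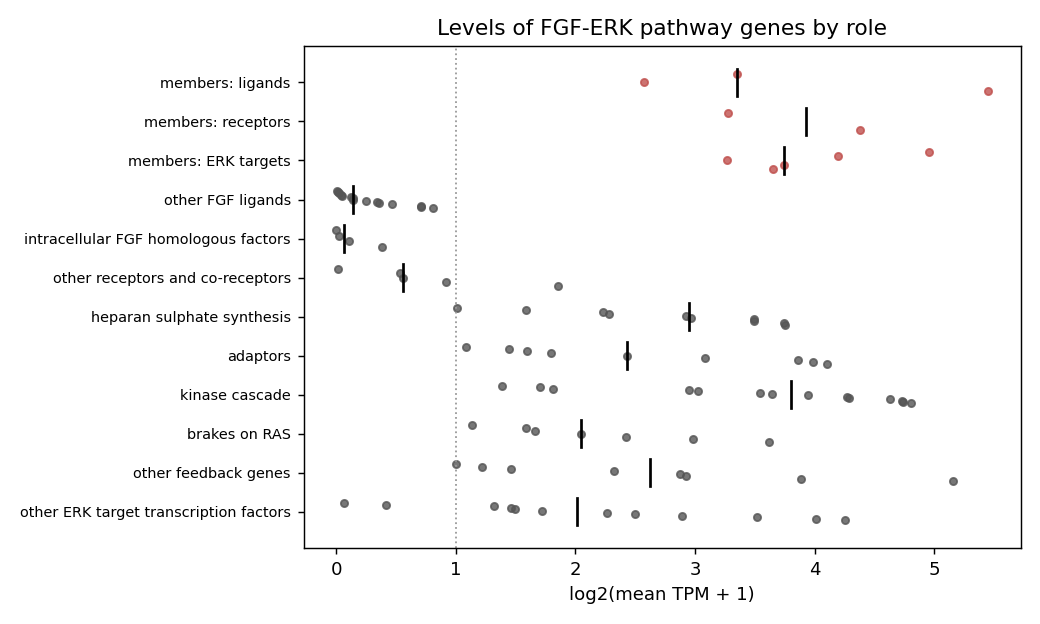
Mean level, as log2(mean TPM + 1), of each of the 10 genes by role (red) and of 84 other pathway genes by list (grey), with the median of each row as a black bar and 1 TPM as a dotted line. All 10 genes lie right of the dotted line, as do all 14 genes of the kinase cascade, whereas none of the 15 other ligands does.

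Markers of some other cell types also stood apart between the libraries. The 7 primitive endoderm markers summed to 8.74 TPM in replicate 2 and 1.68 TPM in replicate 1, all 7 were higher in replicate 2, and none was at 1 TPM or more in both. The 7 fibroblast or feeder markers summed to 153.41 and 47.37 TPM, of which Acta2 gave 100.23 and 33.04 TPM. Of these 7, 5 were at 1 TPM or more in both, and Lum had no counts in either. Primed epiblast markers (2 of 6 passing) summed to 5.48 TPM in replicate 2 and 5.57 TPM in replicate 1, and mesoderm markers (0 of 5) to 1.88 and 0.94 TPM. Neuroectoderm markers (2 of 5) summed to 35.43 and 20.4 TPM, of which Tubb3 gave 27.12 and 13.28 TPM. By TPM, 5 fibroblast or feeder markers stood higher in replicate 2 and 1 lower. These counts were 4 and 2 for primed epiblast, 3 and 1 for mesoderm and 3 and 2 for neuroectoderm. By TMM they were the same except for mesoderm, at 3 and 2. No share of all protein-coding genes by direction is given here, so the counts by direction have no background. The part of these cell types in the lower ligand levels, the higher Dusp6 level and the Fgfr2 exon shares was not tested. In such bulk libraries, fewer cells of a type and less RNA per cell cannot be told apart.

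The difference between libraries also moved with base composition. With protein-coding genes in 10 bins by GC content of the leading transcript, the median difference by TPM was 0.41 in the lowest bin and 0.02 in the highest. Fgf4 and Fgf15, both at 50.8% GC, lay in a bin with a median of 0.23, and Fgf17, at 58.1%, in the highest bin. In those bins, 0.643% and 1.34% of genes were 2-fold lower in replicate 2. The part of base composition in the ligand differences was not tested. Annotated antisense genes overlap Fgf15 (Gm26793, 0.13 and 0.19 TPM in replicates 2 and 1) and Fgfr1 (Gm16159, 0.05 and 0 TPM); the strand setting of the counting was not found in the sources used here.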

How the data were processed

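Total RNA-seq of 1 group of 2 ES-E14 libraries was used. The deposited text file names mm10 and annotation M4; which aligner and quantifier made the tables is not stated in the sources used here. Per the file headers, the authors' gene and transcript tables hold expected counts (not whole where reads are shared), TPM, FPKM and effective length. They also hold deposited signal values, the posterior mean TPM and interval bounds, with no level stated, and the percent of its gene's output that each transcript takes.

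Symbols and exons came from GENCODE M21 on GRCm38, the assembly of mm10; 42462 of 43346 genes matched. The 26345 rows that name no mouse gene held 15 counts in replicate 2 and 1 in replicate 1 and were left out. M21 is later than the annotation of the files, and 56 of 64 member transcripts had the same length in both. Fgfr1-208 and Fgfr2-211 are among those that differed. Exon classes follow M21.

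The members and lists were chosen with earlier results of these data known. All members were named, and of every further list the top 2 and the lowest by mean TPM, the 2 highest transcripts of each member, and receptor transcripts at 1 TPM or more in a library. A gene that this rule names and the exon sequences are not reported here. Differences are log2(value + 1), which understates those of low genes. Expected counts were rounded for scaling with edgeR 4.0.16 (TMM factors 1.05 in replicate 2 and 0.949 in replicate 1) and, as an alternative, DESeq2 1.42.0, in R 4.3.3. The exact 95% intervals of count ratios are conditional binomial and cover counting error only. No p was computed, since 1 library stood on each side. Exons were recognised by translation with Biopython 1.88; matplotlib 3.10.9, scipy 1.17.1, pandas 2.3.3 and numpy 2.4.6 were run in Python 3.11.15. Of the calculations, the 2-fold calls on the TPM scale were tested on simulated data. Alternatives were other TPM limits, folds and pseudocounts, posterior mean TPM, FPKM, TPM over nuclear protein-coding genes alone, count scalings and each library alone.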

Additional observations from a re-analysis of the deposited data

How the results depend on the processing

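All 10 genes passed 1 TPM in both libraries under each alternative except the limit of 5 TPM, which 8 passed; at that limit 30 of the other pathway genes passed, against 54. With a fold of 1.5, 1 member, Dusp6, was higher in replicate 2, against 0 at 2-fold, and 3 were lower (Fgf4 as well as Fgf15 and Fgf17), against 2. The share of protein-coding genes past 1.5-fold is not given here, so these counts have no background and are not read further. The signs of Fgfr1, Spry4 and Etv5 differed between TPM and the scaled counts, and the other 7 kept theirs in 5 of 5 alternatives. Rescaled to protein-coding genes, the median levels were 47.9 TPM for ligands, 69.1 TPM for receptors and 60.6 TPM for targets, since each library's total was then smaller. In FPKM they were 24.35 for receptors and 21.3 for targets. Means in place of medians were 19.0 TPM for ligands and 16.0 TPM for targets. From 1 library alone the ligand median was 3.09 to 15.36 TPM and the target median 13.28 to 15.18 TPM. The IIIc share of Fgfr1 was 99.8% by expected counts and 99.2% by posterior mean TPM. That of Fgfr2 was 83.0% by expected counts and 71.2% by posterior mean TPM, against 76.9% by TPM. By library it was 88.5% and 77.6% by counts and 76.6% and 65.9% by posterior mean TPM in replicates 2 and 1. For the other moves the cause was not tested. Of all alternatives to the values that answer a comparison, 44 stayed within the limits set and 12 moved. Of those for single genes and transcripts, 45 stayed and 35 moved. Some could not move. A gene with 1 listed transcript gives 100% under any alternative, and a looser limit or 1 library alone cannot lower the count of 10 genes. The ligand median counted as staying at both 3.09 and 15.36 TPM, so staying does not mean a small change. No paired analysis was possible because the libraries form 1 group. Depth limits the IIIb sum of Fgfr1, at under 10 expected counts a library.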

Other observations

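The genes around Fgf4 and Fgf15 on chromosome 7 were looked at after the values of the ligands were seen. Fgf3, upstream of Fgf4, had 0.65 TPM in replicate 2 and 0.63 TPM in replicate 1. On the far side of Fgf15, LTO1 had 3.3 and 2.58 TPM, the cyclin D1 gene Ccnd1 12.95 and 11.8 TPM, and the lysosomal channel gene Tpcn2 1.3 and 1.64 TPM. The differences between libraries (log2, replicate 2 minus replicate 1) were -0.59 by TPM and -0.89 by TMM for Fgf4 and -1.44 and -1.92 for Fgf15. Among the neighbours they were 0.12 and 0.03 for Ccnd1, 0.26 and -0.01 for LTO1, 0.02 and -0.35 for Fgf3, -0.20 and -0.55 for Tpcn2 and -0.08 and -0.27 for Mrgprf, which was under 1 TPM in both libraries. Mrgprd, with 4 and 1 counts in replicates 2 and 1, had 0.03 and 0.08. The neighbours thus did not share one direction. No test was possible with 1 library on each side.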
